A study of Arabidopsis thaliana with 72 samples.

Results

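The 49 genes described here are those whose transcript values differed in opposite directions between low and sufficient nitrate in shoots and roots of Arabidopsis thaliana. They were selected on the measured responses themselves: a gene entered when its mean difference between low and sufficient nitrate was 0.7 or more in one organ and -0.7 or less in the other, on the log2 scale. Of 13356 genes with a probe set paired with that gene alone, 39 were higher in low-nitrate shoots and lower in low-nitrate roots, and 10 were lower in low-nitrate shoots and higher in low-nitrate roots. Before exclusions 51 genes met the thresholds. UGT72E1, with 1.43 in shoots and -1.13 in roots, and AT1G54050, with -0.93 in shoots and 3.21 in roots, were left out by the rule. No member had a second probe set of its own.

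Plants of 6 lines grew for 21 days on upright agar plates that held 1% sucrose, on 0.4 mM nitrate (low) or 9 mM nitrate (sufficient), with potassium chloride standing in for potassium nitrate in the low medium. El-0 (N1134) and Fei-0 (CS76412) are natural accessions. KB006 (Kondara x Br-0), NG064 and NG087 (both Nok-3 x Ga-0) and SG063 (Sorbo x Gy-0) are recombinant inbred lines, that is, inbred descendants of a cross between accessions. Shoots and roots of each line and supply gave 3 replicates, each a pool of 30 plants from 3 plates, so 24 groups made up 72 Affymetrix arrays with 1 deposited log2 value per probe set. A whole organ was sampled, so fewer cells of a type and less RNA per cell cannot be told apart in any value below.

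As background, nitrate is both the main nitrogen source of most land plants and a signal. It is taken up by roots, reduced and assimilated in both organs, and plants short of it invest in roots at the expense of shoots. Growth of either organ depends on loosening of the cell wall, in which expansins act, while class III peroxidases can stiffen the wall or form reactive oxygen species. Only a few members carry a gene name in the annotation used here. The others are given by locus and no role is stated for them.

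The 4 arrays labelled Fei-0 replicate 3 resembled other groups more than their own. Each array was compared with the mean profile of every organ and nitrate group, and 68 of 72 correlated best with the group on their label (r of 0.956 or more). The Fei-0 replicate 3 array labelled low-nitrate shoot correlated best with sufficient-nitrate shoots, the one labelled sufficient-nitrate shoot with low-nitrate roots, the one labelled low-nitrate root with sufficient-nitrate roots, and the one labelled sufficient-nitrate root with low-nitrate shoots. These 4 arrays were left out, which leaves 17 arrays per organ and supply, with 2 replicates for Fei-0 and 3 for each other line. With all 72 arrays as labelled, 43 genes met the rule in the first direction, 30 of them among the 39, and 8 in the second, 6 of them among the 10. Membership also turned on single replicates: with replicate 1, 2 or 3 of every group left out, 29, 29 and 31 of the 39 and 8, 9 and 9 of the 10 still met the rule, and 18 of the 39 and 6 of the 10 did so in all 3 cases.

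Array medians lay between 5.72 and 6.04, and 25.1% to 27.8% of probe sets per array lay within 0.1 of the lowest value in the table, 2.11. The median array value was 5.98 ± 0.04 in low-nitrate shoots and 5.80 ± 0.05 in sufficient-nitrate shoots (SD, n = 17 each), a shift of 0.19. In roots it was 5.94 ± 0.02 at low nitrate and 5.97 ± 0.03 at sufficient nitrate (SD, n = 17 each), a shift of -0.03. Centring each array on its median removes these shifts, and then 25 genes met the rule in the first direction, all of them among the 39, and 17 in the second, including all 10. The split between the directions therefore depends on the scaling. Over all 22746 probe sets the median response was 0 in both organs on the deposited scale. This median counts the probe sets at the floor, which differ by about 0, so it does not measure balance among the others.

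**Figure D1:**
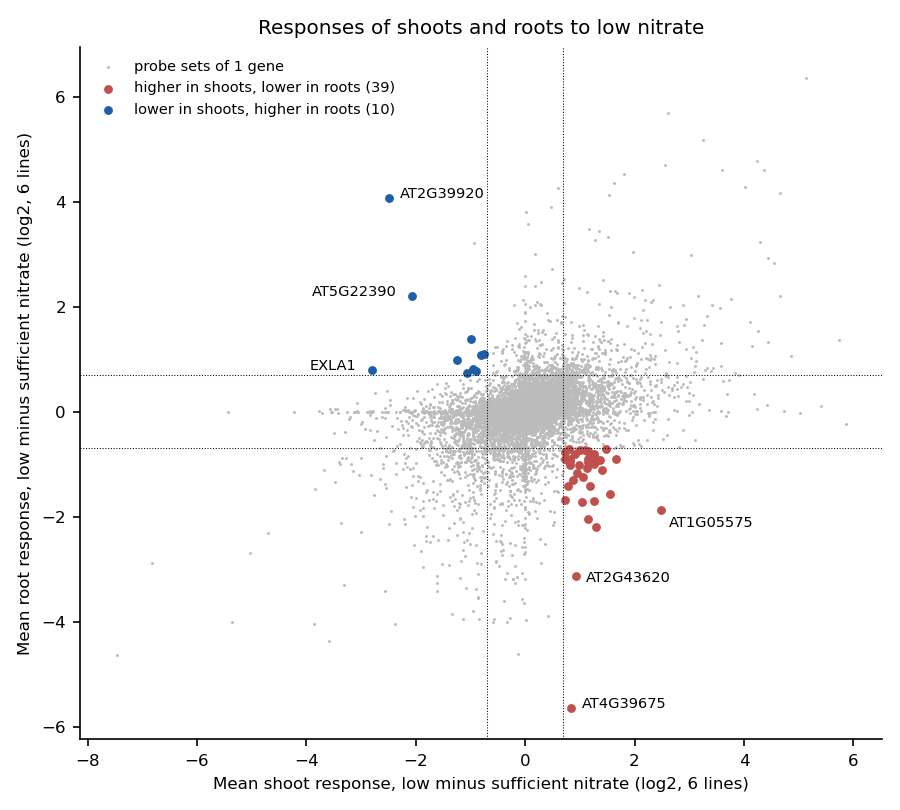
Mean response of each probe set paired with 1 gene, low minus sufficient nitrate on the log2 scale, in shoots (x axis) and roots (y axis), averaged over 6 lines, with dotted lines at 0.7 and -0.7. The 39 red points are genes higher in low-nitrate shoots and lower in low-nitrate roots, the 10 blue points the reverse, and AT4G39675 (-5.64 in roots) and AT2G39920 (4.07 in roots) lie farthest out.

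Among the 39 genes the mean shoot response had a median of 1.1 and reached 2.48, and the mean root response had a median of -0.96 and reached -5.64. A 2-fold difference or more (1 on the log2 scale) was seen in shoots for 22 of them and in roots for 19. AT1G05575 headed the list, ranked by the smaller of its responses in absolute value. Its values on single arrays ran from 3.95 to 7.78 with a median of 6.49 in low-nitrate shoots, and from 2.21 to 5.81 with a median of 3.57 in sufficient-nitrate shoots. In roots the order was turned: 4.08 to 6.75 with a median of 5.33 at low nitrate, against 5.76 to 9.02 with a median of 7.14 at sufficient nitrate. Both pairs of groups overlapped, but each of the 6 lines moved up in shoots and down in roots. The mean response was 2.48 ± 0.60 in shoots (SD over 6 lines) and -1.88 ± 1.07 in roots, with the smallest in Fei-0 in both organs (1.43 and -0.16) and the largest in NG087 (2.98 and -3.23).

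AT4G16000 had values from 4.87 to 8.62 (median 7.42) in low-nitrate shoots, against 3.95 to 7.17 (median 5.61) in sufficient-nitrate shoots. Its root values were 3.31 to 6.36 (median 3.95) at low nitrate, against 3.07 to 7.97 (median 6.22) at sufficient nitrate. The groups overlapped widely, and the lines had unlike responses. In shoots the response was 0.03 in KB006 and 0.49 in Fei-0 but 1.94 in El-0, 2.11 in NG087, 2.31 in SG063 and 2.43 in NG064. In roots it was -2.81 in KB006, -2.73 in Fei-0, -2.45 in NG087 and -1.53 in NG064, while SG063 (-0.13) and El-0 (0.20) lay near 0. The weak line in shoots, KB006, was thus the strongest in roots, although no difference between lines was called in shoots (limma interaction, adjusted p = 0.525).

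For AT1G76590, low-nitrate shoots gave 7.06 to 9.89 (median 8.72) and sufficient-nitrate shoots 3.82 to 8.79 (median 7.69). Low-nitrate roots gave 4.64 to 7.01 (median 6.08) and sufficient-nitrate roots 6.93 to 9.20 (median 8.19). The root groups touched only at their edges, between 6.93 and 7.01. All 6 lines had the same signs, from 0.54 in Fei-0 to 2.16 in El-0 in shoots and from -1.24 in El-0 to -3.34 in KB006 in roots, and the means were 1.30 ± 0.56 and -2.20 ± 0.78.

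AT1G19530 spread over most of the scale in shoots, with 4.34 to 10.38 (median 7.10) at low nitrate and 2.26 to 9.67 (median 5.69) at sufficient nitrate. In roots the arrays gave 7.17 to 12.17 (median 8.67) at low nitrate and 9.03 to 12.79 (median 10.78) at sufficient nitrate. The groups overlapped in both organs, and NG064 had the highest level in each. The shoot responses were 3.70 in Fei-0, 1.42 in El-0, 1.27 in NG064, 0.92 in NG087, 0.77 in SG063 and -0.51 in KB006, so Fei-0, with 2 replicates, supplied the largest share of the mean of 1.26 ± 1.38. Roots were more even, from -0.55 in NG064 to -2.71 in KB006, with a mean of -1.70 ± 0.72.

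The line NG064 stood out for AT1G10340. Shoot values were 3.19 to 9.20 (median 7.07) at low nitrate and 3.19 to 9.05 (median 4.53) at sufficient nitrate, which overlap throughout. Root values were 2.19 to 4.23 (median 3.12) at low nitrate and 2.39 to 7.85 (median 4.53) at sufficient nitrate. The 4 recombinant lines were higher in low-nitrate shoots, by 2.96 in NG064, 2.33 in NG087, 1.41 in SG063 and 0.80 in KB006, while the accessions El-0 and Fei-0 had -0.19 and -0.21. No difference between lines was called in shoots (limma interaction, adjusted p = 0.147). In roots NG064 had -3.67 and NG087 -2.43, SG063 -1.24, El-0 -1.02, KB006 -0.39 and Fei-0 0.28. Without NG064 the mean root response was -0.96, against -1.41 ± 1.43 with it.

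AT4G34560 had the smallest spread between lines in roots among these first 10 genes. In shoots its values were 5.12 to 7.41 (median 6.96) at low nitrate and 4.81 to 6.83 (median 5.64) at sufficient nitrate. In roots they were 4.11 to 6.02 (median 5.34) at low nitrate and 6.49 to 7.89 (median 7.22) at sufficient nitrate, with no overlap between the root groups. The root responses of the 6 lines lay between -1.59 in SG063 and -2.55 in KB006 (mean -2.04 ± 0.37), and the shoot responses between 0.29 in Fei-0 and 1.86 in NG064 (mean 1.15 ± 0.56).

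AT2G01610 had 5.10 to 6.97 (median 6.12) in low-nitrate shoots and 3.43 to 6.30 (median 4.47) in sufficient-nitrate shoots. Root values were 5.75 to 7.98 (median 6.62) at low nitrate and 4.68 to 9.39 (median 7.80) at sufficient nitrate. All 6 lines were higher in low-nitrate shoots, from 0.63 in Fei-0 to 1.98 in NG064. Roots were uneven: KB006 (-2.12), Fei-0 (-2.04), El-0 (-1.81) and SG063 (-1.18) were lower at low nitrate, NG087 had -0.31 and NG064 0.79. This difference between lines was not called (limma interaction, adjusted p = 0.212).

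EXPA15 (AT2G03090) encodes an alpha-expansin, a cell wall protein of the family that loosens walls during growth. Its values were 6.54 to 8.19 (median 7.68) in low-nitrate shoots and 4.69 to 8.76 (median 6.36) in sufficient-nitrate shoots. In roots they were 8.21 to 9.86 (median 9.25) at low nitrate and 8.27 to 11.45 (median 10.48) at sufficient nitrate. The groups overlapped in each organ, and the single lines gave uneven pairs of responses, although no difference between lines was called (limma interaction, adjusted p = 0.853 in shoots and 0.193 in roots). KB006 moved by 1.64 in shoots and -2.08 in roots, whereas NG064 had 1.85 in shoots and 0.18 in roots and El-0 had 0.31 in shoots and -1.69 in roots. NG087 had 1.62 and -0.96, SG063 1.08 and -0.81, and Fei-0 0.32 and -1.09, which gave means of 1.14 ± 0.69 in shoots and -1.07 ± 0.78 in roots.

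AT3G03870 had 9.40 to 10.71 (median 10.03) in low-nitrate shoots and 6.88 to 9.63 (median 9.07) in sufficient-nitrate shoots. The roots gave 5.27 to 7.06 (median 6.41) at low nitrate and 6.17 to 8.45 (median 7.92) at sufficient nitrate. The shoot groups overlapped only between 9.40 and 9.63. El-0 had the largest shoot response (1.93) and the smallest root response (-0.61), and the means over lines were 1.05 ± 0.48 and -1.24 ± 0.54.

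AT2G34810 closed the first 10, with 5.21 to 9.01 (median 6.96) in low-nitrate shoots and 4.61 to 8.20 (median 5.47) in sufficient-nitrate shoots. Its root values were 4.31 to 7.09 (median 4.98) at low nitrate and 5.11 to 8.07 (median 6.86) at sufficient nitrate. The groups overlapped, and all 6 lines had the same signs. Shoots ran from 0.28 in SG063 to 2.01 in NG087, and roots from -0.72 in NG087 to -2.75 in NG064, with means of 1.03 ± 0.62 and -1.72 ± 0.74.

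**Figure D2:**
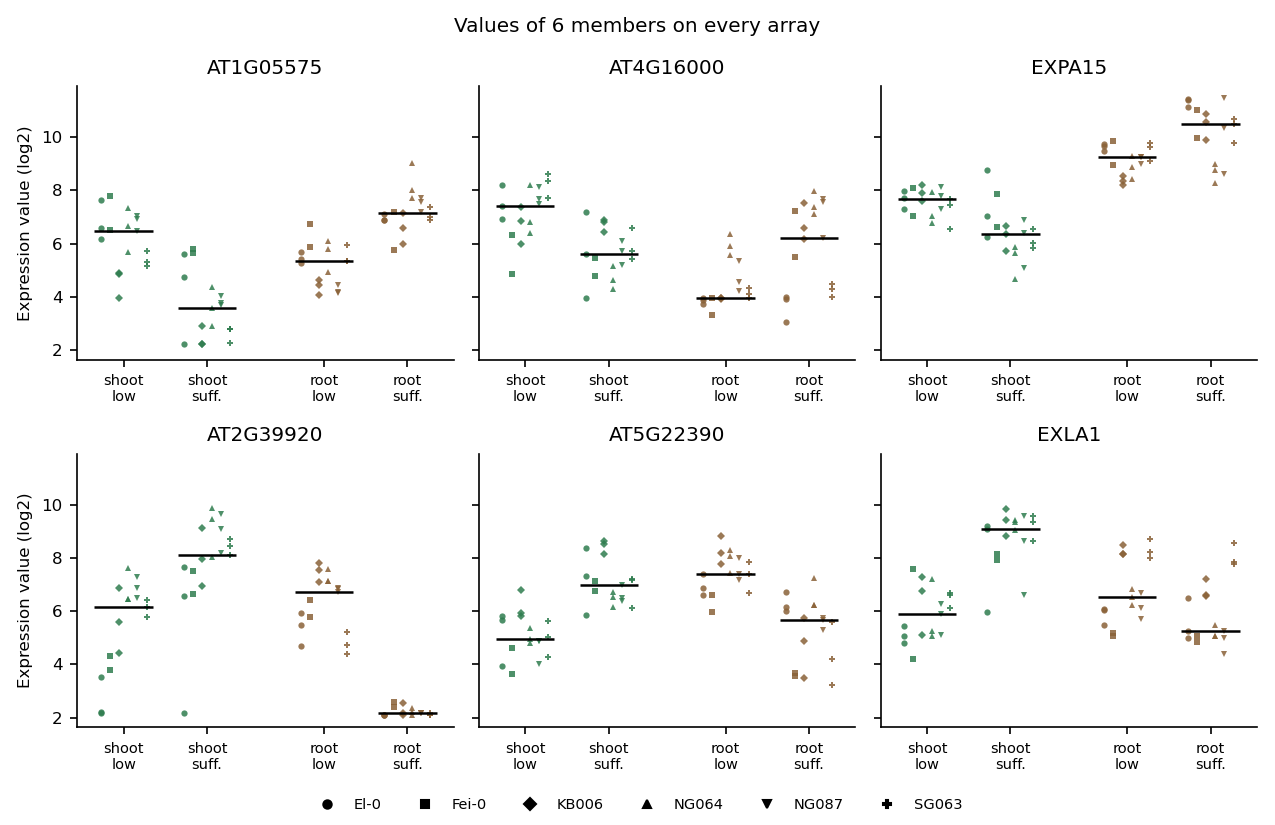
Log2 values of 6 members on each of the 68 arrays used, with low nitrate left of sufficient nitrate (suff.) within each organ, a marker shape per line and a bar at the median of 17 arrays. The upper genes (AT1G05575, AT4G16000, EXPA15) have higher medians in low-nitrate shoots and lower medians in low-nitrate roots, and the lower genes (AT2G39920, AT5G22390, EXLA1) the reverse.

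Several of the 39 had a root response far larger than their shoot response. For AT4G39675 the root values were 2.82 to 7.72 (median 5.60) at low nitrate and 8.04 to 13.13 (median 11.67) at sufficient nitrate, with no overlap. Its shoot values were 2.85 to 6.88 (median 3.92) at low nitrate and 2.14 to 5.00 (median 3.46) at sufficient nitrate, which overlap. The mean root response was -5.64 ± 1.33, a 49.8-fold difference, and the shoot mean of 0.84 ± 1.07 rested on Fei-0 (2.56) and El-0 (1.67), with the other lines between -0.40 and 0.47. AT2G43620 also had root groups without overlap, at 2.93 to 5.29 (median 4.39) at low nitrate and 5.91 to 9.83 (median 7.38) at sufficient nitrate. Its mean responses were 0.92 ± 1.06 in shoots, where SG063 had -0.80, and -3.12 ± 1.16 in roots. Root groups did not overlap for 4 of the 39 (AT4G34560, AT4G39675, AT2G43620 and AT2G43850), against 1.37% of all probe sets with every low-nitrate root array below every sufficient-nitrate one. In shoots this was so for 0 of the 39, against 1.89% of all probe sets with low nitrate above. The rule used these contrasts, so nothing is read from the counts.

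Another named gene, PRX71 (a synonym of AT5G64120), is a peroxidase. In roots the values were 4.05 to 10.50 (median 9.87) at low nitrate and 8.12 to 12.00 (median 10.81) at sufficient nitrate, and its shoot values 6.50 to 10.25 (median 8.34) at low nitrate and 5.42 to 8.88 (median 8.08) at sufficient nitrate. Both organs had overlapping groups. The means were 0.78 ± 0.63 in shoots and -1.42 ± 1.14 in roots, where NG087 moved by -3.57 and the other lines by -0.41 to -1.43.

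The transcription factor gene bZIP58 (AT1G13600) had 3.28 to 5.33 (median 4.56) in low-nitrate shoots and 2.82 to 4.53 (median 3.70) in sufficient-nitrate shoots. In roots it had 5.42 to 8.11 (median 6.89) at low nitrate and 6.82 to 9.42 (median 8.34) at sufficient nitrate. Its responses, 0.88 ± 0.38 in shoots and -1.30 ± 0.64 in roots, had the same sign in all 6 lines although the groups overlapped.

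TRM24 (AT5G51850) encodes a TON1 recruiting motif protein, of a family named for a motif that recruits TON1 proteins, which act at microtubules. It lay within 0.1 of the floor of 2.11 on 10 of 17 low-nitrate root arrays, so the floor limits its root response. Root arrays gave 2.11 to 2.29 (median 2.16) at low nitrate and 2.13 to 4.44 (median 3.10) at sufficient nitrate, and its shoot values 2.26 to 5.35 (median 3.89) at low nitrate and 2.29 to 4.87 (median 2.52) at sufficient nitrate. Low and sufficient arrays overlapped in both organs, with mean responses of 0.98 ± 0.69 in shoots and -1.01 ± 0.77 in roots.

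OASA2 (AT3G22460) is annotated as an isoform of O-acetylserine (thiol) lyase, the enzyme that makes cysteine. It had 7.22 to 9.00 (median 8.09) in low-nitrate shoots and 4.48 to 8.19 (median 7.42) in sufficient-nitrate shoots, and 7.01 to 8.21 (median 7.56) in low-nitrate roots and 7.39 to 9.26 (median 8.55) in sufficient-nitrate roots. The groups overlapped, and the 6 lines shared both signs, with means of 0.90 ± 0.59 and -0.81 ± 0.46.

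The remaining 23 of the 39 are loci with no role in the annotation used here, and their mean shoot and root responses follow. With a root response of -1 or less there were AT4G14060 (1.27 in shoots and -1.0 in roots), AT4G30170 (0.96 and -1.17), AT5G02550 (0.83 and -1.01) and AT5G04000 (0.73 and -1.69). The others with a shoot response of 1 or more were AT3G07720 (1.66 and -0.91), AT5G58540 (1.48 and -0.71), AT1G53180 (1.36 and -0.92), AT5G37540 (1.30 and -0.95), AT2G43140 (1.26 and -0.80), AT1G23850 (1.25 and -0.85), AT1G67750 (1.16 and -0.96), AT1G10640 (1.16 and -0.75), AT3G09020 (1.15 and -0.89), AT4G30650 (1.12 and -0.75) and AT5G61290 (1.1 and -0.74). The floor limits 3 of these. Within 0.1 of it lay 5 of 17 low-nitrate root arrays for AT5G61290. In sufficient-nitrate shoots 7 of 17 arrays did so for AT2G43140 and 5 of 17 for AT5G58540. AT5G66490 (0.99 and -0.72), AT5G46780 (0.82 and -0.94), AT2G43850 (0.81 and -0.91), AT2G27310 (0.80 and -0.72), AT3G26460 (0.80 and -0.92), AT3G13175 (0.77 and -0.93), AT5G43180 (0.73 and -0.90) and AT4G00780 (0.72 and -0.76) were below 1 in absolute value in both organs. Lines could be uneven here too. In shoots AT4G30170 reached 3.31 in Fei-0, with 2 replicates, and had an SD over lines of 1.19. In roots AT4G00780 reached -2.67 in KB006 and had an SD over lines of 0.99. By chromosome the 39 fell 9 on 1, 7 on 2, 6 on 3, 7 on 4 and 10 on 5.

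The threshold cut through a continuum. AT5G58540 (-0.71 in roots), AT2G27310 (-0.72 in roots) and AT4G00780 (0.72 in shoots) lay just inside. Just outside were AT4G14270 (0.696 in shoots, -1.13 in roots), CML38 (1.13 in shoots, -0.69 in roots) and AT5G58787 (0.91 in shoots, -0.69 in roots). With a threshold of 0.5 the first direction held 99 genes, and with a threshold of 1 it held 11.

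The 10 genes of the second direction were led by AT2G39920. In shoots its values were 2.18 to 7.62 (median 6.13) at low nitrate and 2.18 to 9.87 (median 8.10) at sufficient nitrate. In roots they were 4.39 to 7.79 (median 6.73) at low nitrate and 2.11 to 2.57 (median 2.16) at sufficient nitrate. The shoot groups overlapped and the root groups did not, and 13 of 17 sufficient-nitrate root arrays lay within 0.1 of the floor. Shoot responses were even, from -2.09 in NG087 to -3.03 in Fei-0 (mean -2.48 ± 0.36). Root responses were 5.20 in KB006, 5.05 in NG064, 4.64 in NG087, 3.60 in Fei-0, 3.26 in El-0 and 2.65 in SG063, with a mean of 4.07 ± 1.04, a 16.8-fold difference that the floor limits.

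AT5G22390 had 3.63 to 6.78 (median 4.96) in low-nitrate shoots and 5.86 to 8.65 (median 6.97) in sufficient-nitrate shoots. Its root values were 5.96 to 8.82 (median 7.39) at low nitrate and 3.21 to 7.26 (median 5.66) at sufficient nitrate. Overlap was seen in both organs. The shoot response ran from -1.42 in NG064 to -2.82 in Fei-0 (mean -2.07 ± 0.46) and the root response from 0.67 in El-0 to 3.55 in KB006 (mean 2.20 ± 1.07).

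AT5G08360 had 2.14 to 3.87 (median 2.65) in low-nitrate shoots, 3 of 17 arrays within 0.1 of the floor, and 2.52 to 5.13 (median 3.88) in sufficient-nitrate shoots. Roots had 5.96 to 8.91 (median 7.85) at low nitrate and 4.65 to 7.38 (median 6.24) at sufficient nitrate. The groups overlapped in both organs. The lines lay between -0.56 in Fei-0 and -1.54 in NG087 in shoots (mean -1.0 ± 0.40) and between 0.92 in SG063 and 1.85 in NG064 in roots (mean 1.37 ± 0.35).

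AT5G18840 had 3.34 to 8.61 (median 6.77) in low-nitrate shoots and 6.47 to 8.53 (median 7.66) in sufficient-nitrate shoots. In roots the range was 8.48 to 11.15 (median 10.33) at low nitrate and 6.95 to 10.41 (median 9.11) at sufficient nitrate. Both organs had overlapping groups. A single line, SG063, had a shoot response of -3.52, with the other lines between -0.33 and -1.0, so the gene's mean of -1.24 ± 1.14 was wide, while the root mean was 0.99 ± 0.42. No difference between lines was called in shoots (limma interaction, adjusted p = 0.567).

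AT3G43270 had 5.73 to 7.02 (median 6.28) in low-nitrate shoots and 6.31 to 8.07 (median 7.53) in sufficient-nitrate shoots. Its root values lay at 6.79 to 8.34 (median 7.53) at low nitrate and 6.33 to 7.04 (median 6.56) at sufficient nitrate. The root groups overlapped only between 6.79 and 7.04. Fei-0 had a shoot response of -0.02 and KB006 one of -1.78, with a mean of -0.94 ± 0.58, against 0.80 ± 0.26 in roots.

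EXLA1 (AT3G45970), an expansin-like gene, had the largest shoot response of the 10. Its shoot values were 4.19 to 7.59 (median 5.90) at low nitrate and 5.97 to 9.82 (median 9.09) at sufficient nitrate. In roots it had 5.07 to 8.69 (median 6.54) at low nitrate and 4.38 to 8.55 (median 5.26) at sufficient nitrate. Low and sufficient arrays overlapped in both organs, in roots almost throughout. All 6 lines were lower in low-nitrate shoots, from -2.15 in Fei-0 to -3.42 in NG064 (mean -2.79 ± 0.44). In roots KB006 (1.46), NG064 (1.33) and NG087 (1.30) stood above El-0 (0.30), SG063 (0.24) and Fei-0 (0.18), with a mean of 0.80 ± 0.62.

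The other 4 were AT1G29660 (-0.80 in shoots and 1.07 in roots), AT2G16630 (-0.75 and 1.09), AT5G16240 (-0.90 and 0.76) and AT3G05320 (-1.06 and 0.73). By chromosome the 10 fell 1 on 1, 2 on 2, 3 on 3 and 4 on 5. Just inside the threshold were AT3G05320, AT2G16630 and AT5G16240, and just outside AT5G07860 (-0.84 in shoots, 0.61 in roots), AT3G47510 (-0.65 and 0.61) and AT4G37220 (-1.0 and 0.61). Shoot groups did not overlap for 0 of the 10, against 2.2% of all probe sets with low nitrate below, and root groups for 1 of the 10, against 0.906% of all probe sets with low nitrate above. With a threshold of 0.5 this direction held 30 genes, and with a threshold of 1 it held 2, AT2G39920 and AT5G22390.

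Agreement between lines was then counted as a description, since the mean over lines had chosen the genes. Among the 39, all 6 lines had a positive shoot response for 32 genes and a negative root response for 29, and both held for 25. All 10 genes of the second direction had the same sign in all 6 lines in both organs. Among the 39 the median shoot response was 1.21 in NG064, 1.17 in El-0, 1.14 in SG063, 0.95 in KB006, 0.91 in NG087 and 0.82 in Fei-0. In roots it was -1.30 in KB006, -1.29 in NG064, -1.08 in SG063, -1.02 in NG087, -0.96 in El-0 and -0.74 in Fei-0. KB006 had the largest root response for 14 of the 39 genes and NG064 for 11, and Fei-0 for 0. Among the 10 the median root response was likewise smallest in Fei-0 (0.67), with 1.36 in NG064, 1.31 in NG087, 1.21 in KB006, 1.08 in SG063 and 0.80 in El-0.

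**Figure D3:**
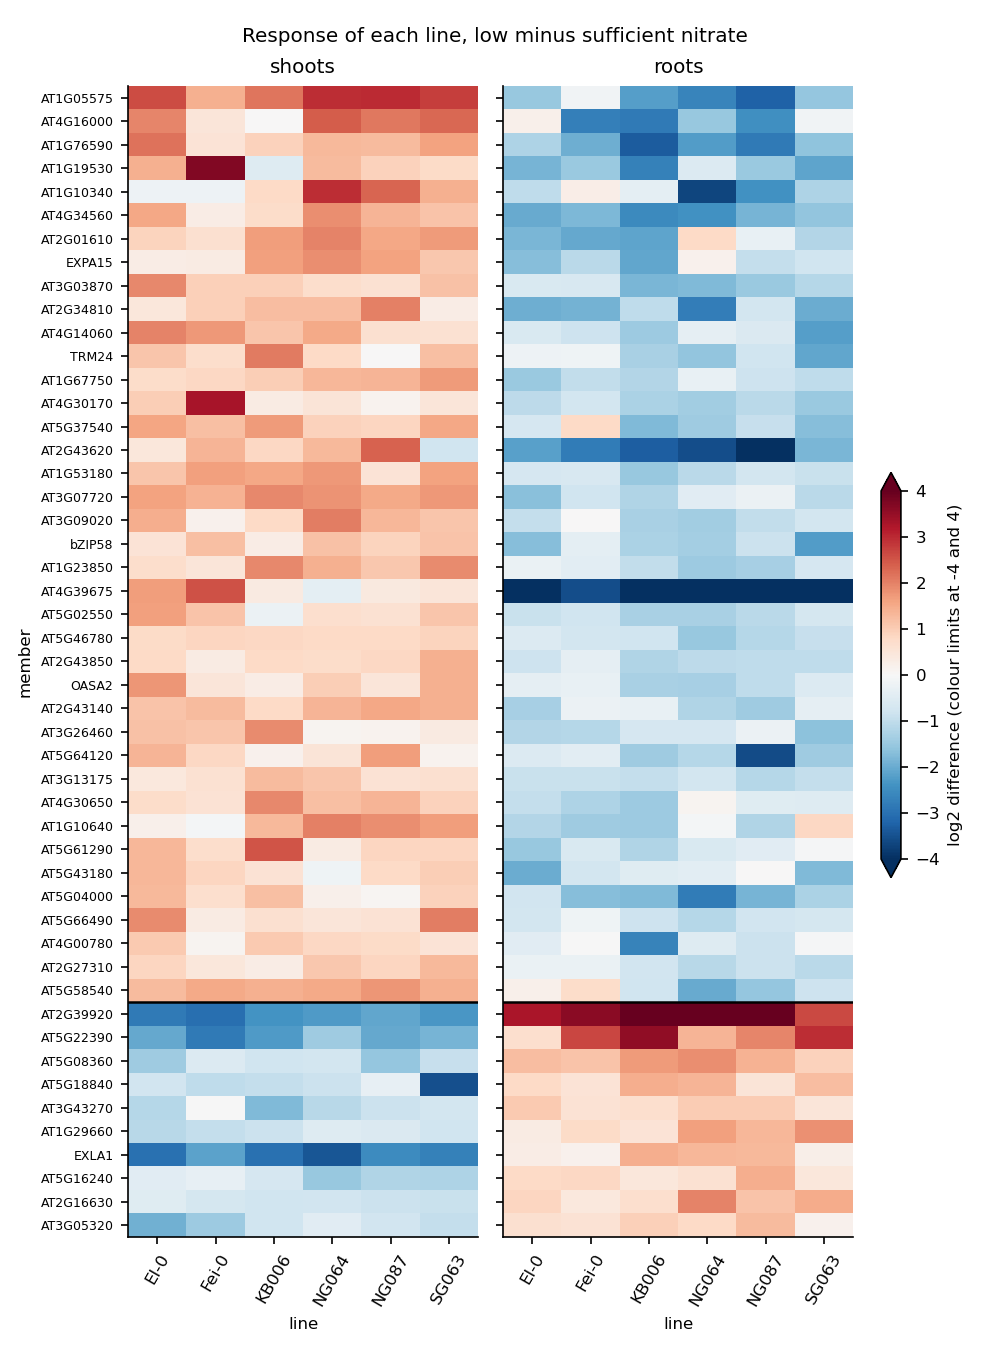
Response of each member in each line, low minus sufficient nitrate on the log2 scale, in shoots (left) and roots (right), with red for higher and blue for lower at low nitrate and colours limited at -4 and 4. The black line separates the 39 genes higher in low-nitrate shoots from the 10 lower ones, and within each block genes run from the largest to the smallest of their smaller responses.

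Organ level was not used by the rule and was tested as the shoot minus root difference, averaged over the 6 lines and both supplies, in a limma fit of all 68 arrays with Benjamini-Hochberg adjustment over all probe sets (called at an adjusted p below 0.05). Of the 39 genes, 28 (71.8%) were higher in roots and 10 (25.6%) higher in shoots, against 40.7% and 29% of all probe sets. All probe sets include those at the floor in every group, which could not meet the rule. Part of the difference in shares can therefore follow from the rule. At least 2-fold differences were found for 20 genes towards roots and 5 towards shoots. The share of all probe sets with such differences was not counted, so nothing is read from these counts. Of the 10 genes, 3 (30%) were higher in roots and 6 (60%) higher in shoots. AT4G34560 (-0.11 ± 0.12, SE, adjusted p = 0.432) and AT5G22390 (-0.23 ± 0.16, SE, adjusted p = 0.192) were not called.

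The genes of the first direction with the largest excess in roots were AT4G30170, AT4G39675 and AT3G26460. AT4G30170 averaged 5.01 in shoots and 11.72 in roots, a difference of -6.71 ± 0.27 (SE, limma adjusted p = 5.53e-27). AT4G39675 averaged 3.81 in shoots and 8.44 in roots, a difference of -4.63 ± 0.22 (adjusted p = 5.74e-24), and AT3G26460 had one of -4.42 ± 0.22 (adjusted p = 7.00e-23). Towards shoots, AT4G00780 averaged 10.38 in shoots and 4.99 in roots, a difference of 5.39 ± 0.11 (adjusted p = 3.04e-39). AT3G03870 differed by 2.48 ± 0.11 (adjusted p = 2.04e-25) and AT1G10340 by 1.99 ± 0.14 (adjusted p = 1.49e-17).

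In the second direction AT1G29660 averaged 11.70 in shoots and 6.06 in roots, a difference of 5.64 ± 0.12 (SE, limma adjusted p = 6.11e-38). AT2G16630 differed by 2.54 ± 0.12 (adjusted p = 1.09e-24) and AT2G39920, with most sufficient-nitrate root arrays at the floor, by 2.33 ± 0.20 (adjusted p = 1.55e-14). Towards roots, AT5G08360 differed by -3.51 ± 0.14 (adjusted p = 1.16e-26) and AT5G18840 by -2.43 ± 0.17 (adjusted p = 4.73e-18). AT3G43270 differed by only -0.22 ± 0.06 (adjusted p = 0.00191), and its call was lost with all 72 arrays (adjusted p = 0.154) and without replicate 2 (adjusted p = 0.0971).

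Seen at each supply, the organ difference of the 39 had a median of 0.02 at low nitrate, against -1.96 at sufficient nitrate. For 16 genes the higher organ switched: shoots were higher at low nitrate and roots at sufficient nitrate. Examples are AT1G05575 (0.96 at low nitrate, -3.40 at sufficient nitrate), AT4G34560 (1.49 and -1.71) and AT2G43620 (2.82 and -1.23). Roots were higher at both supplies for 19 genes, among them EXPA15 (-1.60 at low nitrate, -3.81 at sufficient nitrate) and bZIP58 (-2.39 and -4.57), and shoots were higher at both for 4. For the 10 the medians were -0.87 at low nitrate and 2.00 at sufficient nitrate, and 5 of them, including EXLA1 (-0.80 and 2.79), were higher in roots at low nitrate and in shoots at sufficient nitrate. AT2G39920, another of the 5, had -0.94 at low nitrate and at least 5.61 at sufficient nitrate, where 13 of 17 root arrays lay within 0.1 of the floor. These shifts follow from the rule, which fixes that the shoot minus root difference is higher at low nitrate for the 39 and lower for the 10. The level around which they shift is not fixed by the rule, but the need for values above the floor limits it. In limma tests of each supply alone, 14 of the 39 were higher in roots and 17 in shoots at low nitrate, against 36.8% and 25.7% of all probe sets. At sufficient nitrate 32 of the 39 were higher in roots and 3 in shoots, against 38.8% and 28.4%. The shares of all probe sets again include those at the floor. Of the 10, 6 were higher in roots and 3 in shoots at low nitrate, and 2 in roots and 8 in shoots at sufficient nitrate.

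**Figure D4:**
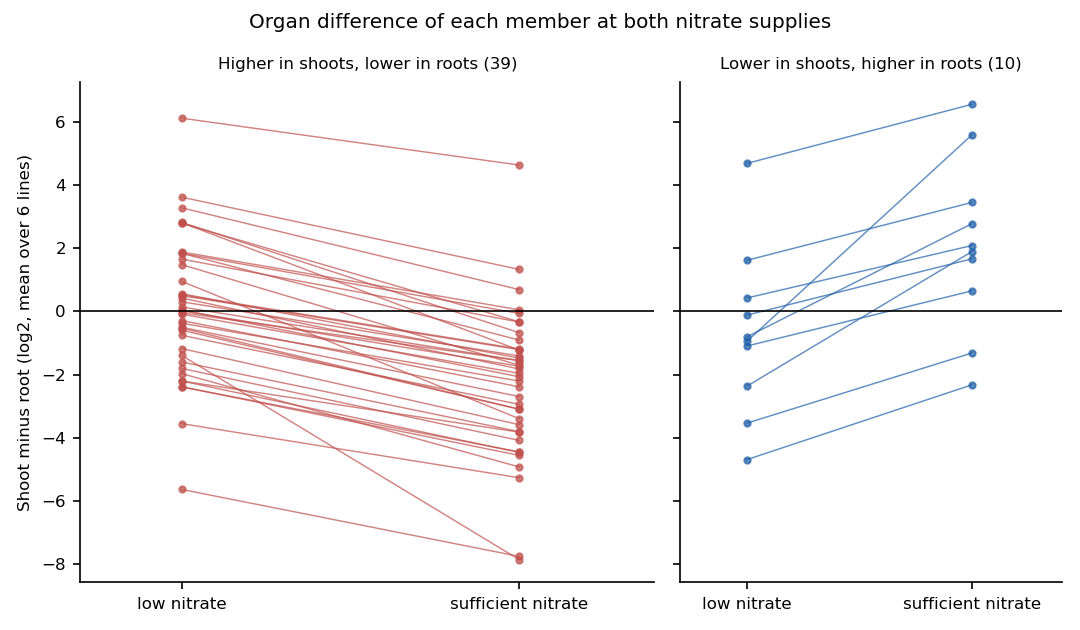
Shoot minus root difference of each member (log2, mean over 6 lines) at low nitrate (left of each panel) and sufficient nitrate (right), 1 line per gene, with 0 marking equal levels. Of the 39 genes in the left panel 16 cross from above 0 at low nitrate to below 0 at sufficient nitrate, and 5 of the 10 in the right panel cross the other way.

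Genes that moved by at least 0.7 in the same direction in both organs give a scale for the organ levels. Of 279 probe sets (278 genes) higher at low nitrate in both organs, 70.6% were higher in roots and 21.5% in shoots. Of 301 probe sets (299 genes) lower at low nitrate in both organs, 15.9% were higher in roots and 78.4% in shoots. The 39 thus had shares near those of the genes higher in both organs, and the 10 had 30% and 60%. The differences between these groups were not tested.

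Whether the lines differed in their response was tested apart from the mean response, as the interaction of line and nitrate supply, in a limma F test per organ with Benjamini-Hochberg adjustment over all probe sets. In shoots no member was called (0 of 39 and 0 of 10), against 1.11% of all probe sets, and at an unadjusted p below 0.05 there were 3 of 39 and 2 of 10, against 9.58% of all probe sets. The lowest adjusted p in shoots was 0.0619, for AT3G43270. With the replicate number as a block this gene was called (adjusted p = 0.0482), as it was after centring the arrays (adjusted p = 0.0279), while its adjusted p was 0.208 to 0.543 with 1 replicate number left out. Without replicate 1, AT2G43850 (adjusted p = 0.0329) and AT3G05320 (adjusted p = 0.0457) were called in shoots, and without replicate 2, AT4G00780 (adjusted p = 0.0284) and AT1G10640 (adjusted p = 0.0272). In roots 7 of the 39 (17.9%) and 1 of the 10 (10%) were called, against 6.24% of all probe sets, and 21 of 39 and 3 of 10 had an unadjusted p below 0.05, against 21.5% of all probe sets. Among the probe sets that moved alike in both organs, 29.7% of those higher and 9.63% of those lower at low nitrate were called in roots. The number of calls among the 39 was 0 without replicate 3. It was also lower without replicate 1 or 2, which leaves 1 Fei-0 array per group. The share of all probe sets called with fewer arrays was not counted. The 1 call among the 10 was lost without replicate 1 (adjusted p = 0.0565) and with all 72 arrays (adjusted p = 0.10).

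AT1G10340 had the strongest such result among the 39 (adjusted p = 0.000364). Its root values in NG064 averaged 3.27 at low nitrate and 6.95 at sufficient nitrate, while in Fei-0 they averaged 2.92 and 2.64. For AT4G16000 (adjusted p = 0.00533) the roots of KB006 averaged 3.94 at low nitrate and 6.75 at sufficient nitrate, while those of El-0 averaged 3.85 and 3.65. AT5G37540 (adjusted p = 0.0116) had root responses of -1.77 in KB006, -1.69 in SG063, -1.41 in NG064, -0.92 in NG087 and -0.68 in El-0, but 0.79 in Fei-0. TRM24 (adjusted p = 0.0151) had -2.07 in SG063, -1.57 in NG064 and -1.31 in KB006, and -0.78, -0.20 and -0.16 in NG087, El-0 and Fei-0, against low-nitrate root values of 2.11 to 2.29, near the floor. AT2G39920, of the second direction, had an adjusted p of 8.18e-05, and since all its sufficient-nitrate root arrays lay at or near the floor its line differences follow the low-nitrate level.

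**Figure D5:**
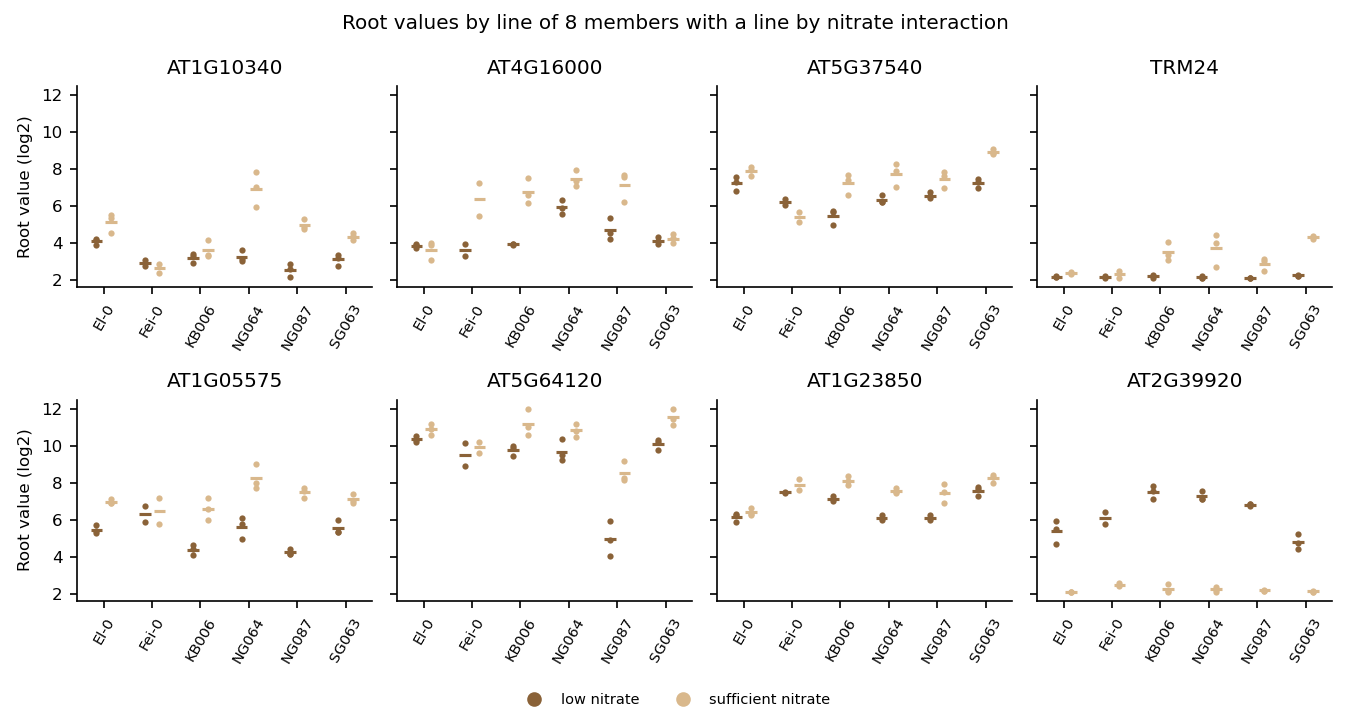
Root values (log2) of the 8 members with a line by nitrate interaction in roots, per line, with low nitrate (dark) left of sufficient nitrate (light), a point per array and a bar at the mean of 2 or 3 replicates. NG064 separates most for AT1G10340 and NG087 for AT5G64120, while the sufficient-nitrate values of AT2G39920 and the low-nitrate values of TRM24 lie along the floor of 2.11.

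The level of a gene, averaged over both supplies, was also compared between lines. In shoots 18 of the 39 (46.2%) and 4 of the 10 (40%) differed between lines, against 35.9% of all probe sets (limma F test, adjusted over all probe sets). In roots 33 of the 39 (84.6%) and 7 of the 10 (70%) did, against 56% of all probe sets. Without replicate 3 the 33 became 19, and the share of all probe sets in that refit was not counted. AT1G23850, singled out after its values were seen, had the lowest adjusted p in shoots (3.86e-10): its line means were 8.16 in Fei-0, 7.18 in SG063 and 6.78 in KB006, and 4.45, 4.28 and 4.15 in NG064, NG087 and El-0. A probe carries 1 reference sequence, and whether sequence differences between lines enter these levels was not tested.

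The replicate spread of these genes was wide. The median residual SD of the 39 was 0.651 in shoots and 0.450 in roots, and that of the 10 was 0.585 and 0.371, against 0.291 and 0.201 for probe sets whose mean reached 5 in at least 1 group. That mean was reached by 37 of the 39 and by all 10. Some values recurred exactly: 24 of the 49 members, against 34.3% of all probe sets, had a value above the floor that was identical on 3 or more arrays. For 6 members at least 1 group held a single repeated value, which adds no spread to the tests. AT5G43180 had 5.97 on 14 arrays, and 4 of its root groups held 1 value each. Its lowest and its median low-nitrate root value were both 5.97, which limits its root response. AT5G04000 had 1 value on 12 arrays and AT3G43270 on 10. AT1G23850 had 3.74 on 8 arrays, and 3 of its shoot groups held 1 value each. The source of the repeats was not tested.

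The other genes of the named members' families were counted without the members, which this contrast had chosen, with the low minus sufficient contrast averaged over lines (limma, adjusted over all probe sets). Of all probe sets, 49.9% were called in shoots and 42.8% in roots in either direction. Among 25 other expansin and xyloglucan enzyme genes, 5 rose and 10 fell in shoots and 5 rose and 5 fell in roots, with list medians of -0.19 and 0. After centring the arrays, 5 of them rose and 16 fell in shoots and 8 rose and 5 fell in roots. Centring takes the median shifts of 0.19 in shoots and -0.03 in roots out of every gene, also of genes at the floor. Such genes have almost no spread and can be called after it, so the added calls are not read as responses. The share of all probe sets called after centring was not counted. On the deposited scale 6 of the 25 were called in the same direction in both organs and 0 in opposite directions. The members taken out, EXPA15 and EXLA1, had been chosen for opposite responses, which lowers the second count. The share of all probe sets called in both organs was not counted, so nothing is read from these counts. XTH33, a xyloglucan enzyme, fell by 3.18 in shoots and by 1.0 in roots, and EXPB2, a beta-expansin, fell by 0.33 in shoots and by 4.01 in roots. XTH18 fell by 2.47 in shoots and had 0.13 in roots, EXPB3 had 0.22 in shoots and fell by 2.04 in roots, and XTH20 rose by 0.89 in shoots and by 1.22 in roots. EXLA2 and EXLA3, expansin-like genes named after their values were seen, fell by 1.80 and 0.81 in shoots and had 0.10 and 0.26 in roots, which did not pass the test. EXLA2 averaged 2.15 in low-nitrate shoots, 2.26 in low-nitrate roots and 2.19 in sufficient-nitrate roots. These means lie near the floor, which limits its shoot fall and leaves no room for a fall in roots.

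Among 13 other bZIP transcription factor genes, 5 rose and 4 fell in shoots and 4 rose and 2 fell in roots (list medians 0.02 and 0.00). Of these, 5 were called in the same direction in both organs and 0 in opposite directions. Nothing is read from these counts either, since bZIP58 was taken out. Centring turned the shoot balance, with 5 that rose and 7 that fell, and gave 7 that rose and 2 that fell in roots. It shifted genes at the floor here too. The values that follow are on the deposited scale. BZIP34 fell by 2.90 in shoots and lay at the floor in roots at both supplies, BZIP61 fell by 1.76 in shoots and had -0.02 in roots, bZIP44 rose by 1.81 in shoots and by 0.21 in roots, and BZIP60 rose by 1.05 in shoots and by 0.96 in roots. The gene bZIP19 had -0.08 in shoots and fell by 0.56 in roots. Among 13 other genes for TON1 recruiting motif proteins, a list added after the members were seen, 3 rose and 3 fell in shoots and 2 rose and 3 fell in roots (list medians -0.07 and 0). After centring, 3 of these rose and 9 fell in shoots and 7 rose and 3 fell in roots. Genes at the floor were again shifted by it, so the added calls are not read as responses. On the deposited scale TRM26 fell by 1.02 in shoots and by 0.30 in roots, TRM34 fell by 0.70 in shoots and lay at the floor in roots at both supplies, TRM28 had -0.17 in shoots and fell by 1.12 in roots, and TRM19 rose by 0.34 in shoots and by 0.65 in roots.

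Of class III peroxidases, 2 genes matched by symbol, PRX52 and Prx37. PRX52 rose by 4.86 in shoots and by 1.05 in roots, and Prx37 rose by 3.67 in shoots and had -0.08 in roots. With synonyms, a match added after the members were seen, there were 5 besides PRX71, of which 3 rose and 0 fell in shoots and 1 rose and 1 fell in roots (list medians 1.0 and -0.08). After centring 3 rose and 1 fell in shoots and 2 rose and 1 fell in roots, with AT3G50990, at the floor in all groups, shifted as well. Of those added, AT5G66390 rose by 1.0 in shoots and had -0.15 in roots, and AT2G41480 had -0.18 in shoots and fell by 0.53 in roots.

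Leaf and root marker genes moved with nitrate as well. The 9 measured leaf markers of 35 listed, of photosynthesis, averaged 12.54 ± 0.23 in low-nitrate shoots and 13.11 ± 0.11 in sufficient-nitrate shoots, and 5.19 ± 0.65 in roots at low nitrate and 8.16 ± 0.45 in roots at sufficient nitrate (SD, 17 arrays each). The 5 measured root markers of 27 listed averaged 7.12 ± 0.37 in low-nitrate shoots and 7.48 ± 0.36 in sufficient-nitrate shoots, and 9.70 ± 0.34 in low-nitrate roots and 10.61 ± 0.28 in those at sufficient nitrate. No marker of either list lay at the floor in any group, and neither list held a member. The 100 genes with the largest excess in sufficient-nitrate roots over shoots averaged 4.89 ± 0.72 (3.34 to 6.12) in low-nitrate shoots and 3.54 ± 0.37 (2.98 to 4.35) in sufficient-nitrate shoots, with 6 and 8 of them at the floor by their median, and 2 members are among them. The 100 with the largest excess in sufficient-nitrate shoots averaged 2.79 ± 0.08 in low-nitrate roots and 3.16 ± 0.16 in sufficient-nitrate roots, with 28 and 21 of them at the floor, and 1 member is among them. In shoots these averaged 9.13 ± 0.31 at low nitrate and 10.20 ± 0.10 at sufficient nitrate. Both lists of 100 were chosen on the sufficient-nitrate arrays that are compared here. Some shift at low nitrate can follow from that choice, so no response is read from these lists. The part of the markers and of these lists in the members' responses was not tested.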

How the data were processed

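The 72 samples were each hybridised to an Affymetrix array. The deposited table holds log2 expression values per probe set; per the submitters' processing notes the authors used affy, GCRMA and limma, with no versions, and the grouping of arrays for normalization is not stated there. No coordinates are given. Of 22746 probe sets 13513 (59.4%) were paired with exactly 1 gene, 503 with several and 8730 with none, and 13436 of the first matched the TAIR10.1 gene table. No 2 arrays held identical values, and replicates of a group correlated at r of 0.950 to 0.996.

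The values were used as deposited, without further normalization. Low minus sufficient differences of group means were taken per line and averaged over 6 lines with equal weight. Members meeting the rule on probe sets without a single gene (68 of 119) were not named. The members and lists were chosen with earlier results of these data known, so no p-value is given for members in that contrast. Organ level, line by nitrate interaction and line level were tested with limma 3.58.1 in R 4.3.3 on group-means models (lmFit, eBayes, two-sided), with Benjamini-Hochberg adjustment over the 22746 probe sets, with calls at an adjusted p below 0.05. Organs were fitted apart for the line tests. The procedure was tested on simulated data.

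Each member is named once with its responses. The 10 (first direction) or 5 (second direction) with the largest smaller response were given per group, besides members with the strongest interaction (up to 4), the largest organ differences (3 each way), those nearest the threshold, and up to 3 called genes per list and organ. Annotated members, AT4G39675, AT2G43620, EXLA2 and EXLA3 were added after their values were seen. Further lists (heat shock, hormone, nutrient and others) and promoter motifs were not analysed here. Alternatives were other thresholds, centring, quantile normalization, a filter on low values, all 72 arrays, single lines or replicates left out, and a replicate block. No reads are counted on an array, so the number of arrays limits the precision.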

Additional observations from a re-analysis of the deposited data

Results flagged for a closer look

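The line by nitrate interaction in roots was called for 8 members, by the limma F test with adjustment over all probe sets. They were 7 of the 39 and 1 of the 10, against 6.24% of all probe sets. In order of adjusted p the 8 were AT2G39920 (8.18e-05), AT1G10340 (0.000364), AT4G16000 (0.00533), AT5G37540 (0.0116), TRM24 (0.0151), AT1G05575 (0.0179), AT5G64120, also called PRX71 (0.0213), and AT1G23850 (0.0464). Of the 8, only 1 stayed called without replicate 3, and 5 with all 72 arrays. AT1G05575 responded in roots by -3.23 in NG087 and by -0.16 in Fei-0. The root values of AT5G64120 in NG087 averaged 4.95 at low nitrate and 8.52 at sufficient nitrate, below every other line at both supplies, with a response of -3.57. AT1G23850 responded by -1.45 in NG064 and by -0.28 in El-0.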

How the results depend on the processing

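The number of members depended on the scaling and the threshold. In the first direction (39) it was 25 after centring arrays on their medians, 99 at a threshold of 0.5, 11 at a threshold of 1 and 25 when every line had to share the sign, and in the second (10) it was 17 after centring, 30 at 0.5 and 2 at 1. The other settings, such as quantile normalization (31 and 13) and each line left out in turn, kept both counts within 1.5 times. At low nitrate alone, 14 of the 39 were higher in roots and 17 in shoots, against 28 and 10, and at sufficient nitrate alone 32 were higher in roots and 3 in shoots. Of the 10, 6 were higher in roots and 3 in shoots at low nitrate alone. These moves between the supplies follow from the rule, which used the same values. Leaving out each replicate number in turn gave 39 to 49 and 10 to 13 members, which shared 29 to 31 of the 39 and 8 to 9 of the 10. It gave 0 to 6 root interaction calls among the 39 (7 with all) and 0 to 1 among the 10, 0 to 2 and 0 to 1 in shoots, and 19 to 26 root line level calls (33 with all). The share of all probe sets called in these refits was not counted. Among the 10, centring added 1 interaction call in shoots, and all 72 arrays gave 0 in roots. With all 72 arrays 0 of the 5 other peroxidase genes were called in roots, against 2. Of the 13 other TON1 recruiting motif genes, 12 (6 on the deposited scale) were called in shoots and 10 (5 on that scale) in roots after centring, and 3 to 6 in roots with a replicate number left out. Centring also shifted genes at the floor, so its added calls are not read as responses. Replicate numbers were not taken as pairs, since not every pair of same-numbered samples had deviations from the group means that correlated above 0.1. Between supplies 11 of 17 shoot pairs did (-0.25 to 0.30), among them all 3 pairs in each of KB006, NG087 and SG063. So did 3 of 17 root pairs (-0.32 to 0.28), and between organs 6 of 17 at low and 5 of 17 at sufficient nitrate. With 2 replicates the 2 Fei-0 pairs must give the same r, and the lowest values, -0.25 and -0.32, are theirs. With the number as a replicate block, 1 of the 10 was called for interaction in shoots, 7 of the 39 and 1 of the 10 in roots, and 28 and 10 of the 39 for organ level. Causes were not tested.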
